A study of Felis catus with 38 samples.

Results

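A set of 4 of the most abundant transcripts in feline oral tumours, ENSFCAG00000040576, ENSFCAG00000001928, ENSFCAG00000045346 and ENSFCAG00000009810, were followed through paired biopsies. They are 4 of 26681 gene IDs in the count table, and all 4 were among the 14996 genes with enough counts to be tested. They were chosen by their measured levels, since each ranks among the 10 genes with the most counts and yet is nearly missing from at least 1 biopsy. Level, range and losses are therefore given as a description, with no test. By summed counts over 38 libraries they ranked 4, 7, 8 and 10. The table pairs no ID with a symbol and the reference table used here matched 0 of them, so no function is stated for any gene, and the labelled tissue could not be checked against marker genes.

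The libraries came from pet cats with oral cancer, biopsied at Day 1 before treatment and again at Day 8. They carry 19 numbers, each at both days, and a number was taken as the same cat, which the labels do not state. All are labelled as tumour from the mucosal surface of the oral cavity. Histology, breed, age and sex of the cats are not stated in these labels. Day 8 libraries carry the label CS3D, which stands for a ring-closed oligonucleotide aimed at STAT3, and the design text places that biopsy ahead of the dose given on the same day. None of the Day 8 libraries used here is from an untreated cat, so treatment, time and repeated biopsy cannot be told apart. Day 8 libraries of cats 13 to 20 are labelled batch 2 and all others batch 1.

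As background, STAT3 is a transcription factor that carries signals from cytokine and growth factor receptors to the nucleus and is often active in cancers of the mouth. A STAT3 decoy is a short DNA duplex that the factor binds in place of its target genes. A biopsy of an oral tumour holds cancer cells together with connective tissue, vessels, immune cells and at times muscle, so a transcript made by only some of these cells follows the makeup of the piece sampled. In such bulk RNA, fewer cells of a type and less RNA per cell cannot be told apart.

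Depth, as total counts, ranged from 10603088 to 22564720 per library, and 16687 to 19062 genes had a count. Levels are given as CPM, counts relative to library depth after TMM scaling, a method that takes most genes as equal between libraries. CPM does not allow for gene length, so levels of different genes are not compared. Near-complete loss is used here for a level below 5% of the gene's own median over the 38 libraries. One library stood apart, the Day 8 library of cat 3. It had 19039469 counts in all, the fewest genes with a count (16687) and the lowest TMM factor, 0.844, against 0.876 to 1.16 in the others. Its deviations from the mean of its day still correlated best with the Day 1 library of the same cat, with r = 0.376 across genes, which are not independent replicates. Results that rest on it are given with and without cat 3.

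ENSFCAG00000040576 was abundant in every biopsy but 1. At Day 1 its lowest, median and highest levels were 3018, 10925 and 42140 CPM, in cat 20, cat 14 and cat 2. At Day 8 they were 6.30, 9743 and 20443 CPM, in cat 3, cat 9 and cat 13. The gene was among the 10 with the most counts of the library in 33 of 38 libraries and took up to 3.74% of all counts. The Day 8 library of cat 3 held 101 of its counts, or 6.30 CPM with a 95% interval of 5.13 to 7.65 (exact Poisson, counting error only). Without that library the levels spanned 15.0-fold, and with it 6692-fold.

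ENSFCAG00000001928 varied more between cats, with a lowest, median and highest level of 1225, 8901 and 34213 CPM at Day 1. At Day 8 these were 12.7, 3759 and 23173 CPM. The lowest value was again that of cat 3, with 203 counts and an interval of 11.0 to 14.5 CPM. Next came the Day 8 libraries of cat 18 at 380 CPM and cat 9 at 595 CPM, which are 7.22% and 11.3% of the median and lie just outside the threshold. Leaving out the library of cat 3 still left a 90.1-fold range, the widest of the 4 genes when libraries with a near-complete loss are set aside.

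ENSFCAG00000045346 had 559, 5598 and 26323 CPM as its lowest, median and highest level at Day 1, in cat 20, cat 4 and cat 2. At Day 8 it had 7.48, 5481 and 14619 CPM, in cat 3, cat 17 and cat 2. The Day 8 library of cat 3 held 120 counts (interval 6.20 to 8.95 CPM). The values nearest the threshold from outside were those of cat 20 and cat 8 at Day 1, at 559 and 734 CPM, or 10.1% and 13.2% of the median. In both cats the gene stood higher at Day 8, at 2027 and 3483 CPM.

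ENSFCAG00000009810 was the only one of the listed genes with repeated losses. Its lowest, median and highest levels were 18.9, 5476 and 11201 CPM at Day 1 and 2.81, 4957 and 15477 CPM at Day 8. It was nearly absent from 6 of 38 libraries, 3 at each day. In cat 19 it had 241 counts at Day 1 and 41 at Day 8, or 18.9 and 2.81 CPM (intervals 16.6 to 21.5 and 2.01 to 3.81). In cat 20 it had 506 and 1038 counts, or 41.5 and 87.6 CPM (intervals 37.9 to 45.3 and 82.4 to 93.1). Both biopsies of these cats thus lay far below the median of this gene. Cat 2 differed, with 131 CPM at Day 1 (interval 126 to 137) and 15477 CPM at Day 8, the highest level of all 38 libraries. The sixth loss was that of cat 3 at Day 8, at 8.42 CPM, after 1946 CPM at Day 1. In the other 32 libraries the gene lay between 1117 and 15477 CPM, a 13.9-fold range. The gap around the threshold was wide, since the highest lost library stood at 2.64% of the median and the lowest of the others at 22.5%.

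**Figure D1:**
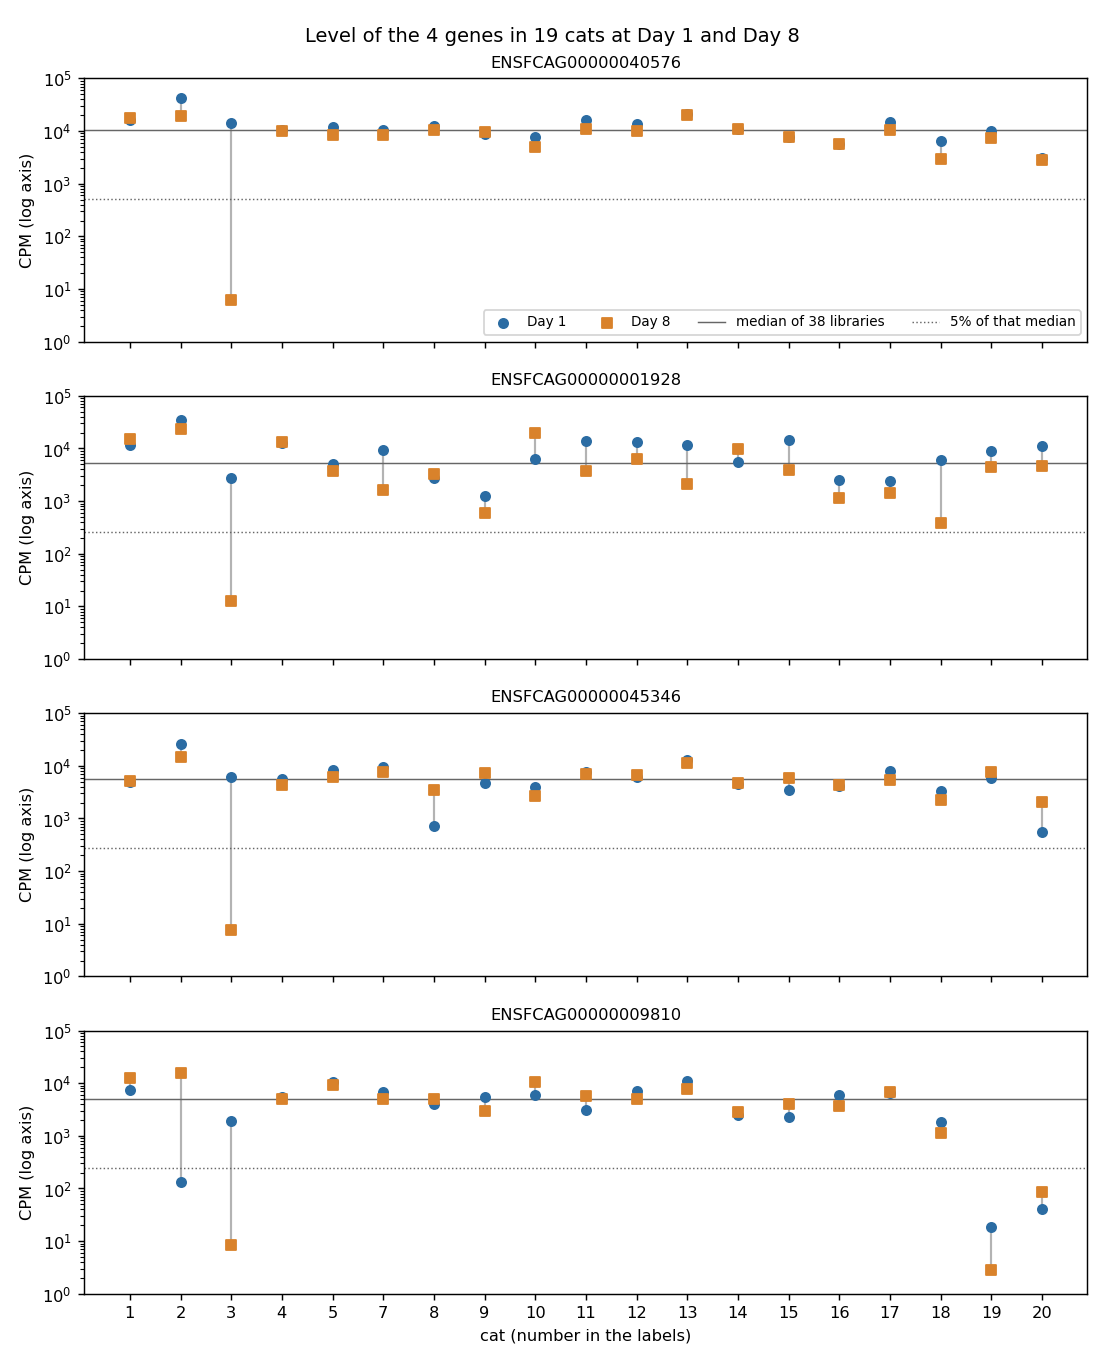
Level of each gene in CPM on a log axis, by cat, with circles for Day 1 and squares for Day 8 joined within a cat, a solid line at the median of 38 libraries and a dotted line at 5% of it. All 4 genes drop below the dotted line in the Day 8 library of cat 3, and ENSFCAG00000009810 alone lies below it in cat 2 at Day 1 and in cats 19 and 20 at both days.

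The losses took 2 forms. In 1 library, cat 3 at Day 8, all 4 genes were lost together. In 5 libraries only ENSFCAG00000009810 was lost, and in no library were 2 or 3 of the genes lost. The 4 genes together made up 2.53% of all counts in cat 3 at Day 1 and 0.00294% at Day 8. Over the other cats their summed share at Day 8 ran from 0.577% in cat 18 to 6.85% in cat 2, and at Day 1 the share of all 19 cats ran from 1.62% to 9.13%.

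When ENSFCAG00000009810 was lost alone, the other genes could be very high. The Day 1 library of cat 2 had 42140 CPM of ENSFCAG00000040576, 34213 CPM of ENSFCAG00000001928 and 26323 CPM of ENSFCAG00000045346. Those are the highest values of all 38 libraries for each gene, and the 3 genes held ranks 1, 2 and 3 by counts in that library. In cat 19 at Day 1 these genes stood at 98.5%, 169% and 105% of their medians. Cat 20 was mixed at Day 1, with 29.2%, 213% and 10.1%, and at Day 8, with 27.2%, 89.4% and 36.6%.

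The loss in cat 3 was part of a wider one, and the others were not as wide. Among 10211 tested genes with a median of at least 10 CPM, 298 were below 5% of their own median in the Day 8 library of cat 3, which is 2.92%. In the other 37 libraries that number ran from 0 to 34, with a median of 10. Of the 298 genes, 256 had at least 20% of their median in the Day 1 library of the same cat, and 236 were lost in no other library. By contrast, 4 genes were lost in the Day 1 library of cat 19 and 4 in its Day 8 library, ENSFCAG00000009810 being 1 of them each time. In cat 20 the numbers were 18 and 13. The Day 1 library of cat 2 had 34, the most after that of cat 3 at Day 8, and its Day 8 library had 5.

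**Figure D2:**
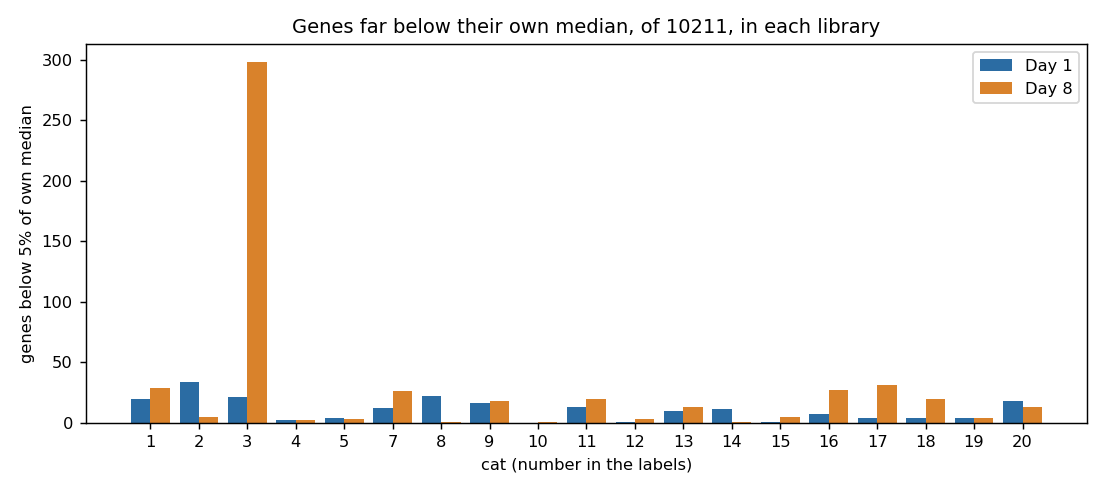
Number of genes below 5% of their own median, of 10211 genes with a median of at least 10 CPM, in each library, with bars for Day 1 and Day 8 of each cat. The Day 8 bar of cat 3 stands at 298, and the next highest, Day 1 of cat 2, at 34.

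Within cats the same picture was seen. In cat 3, 262 of 10231 genes with at least 10 CPM at Day 1 fell more than 20-fold, against 0 to 71 in the other cats. In cat 2, 58 of 9872 genes with at least 10 CPM at Day 8 had been more than 20-fold lower at Day 1, against 0 to 27 in the others. The 6 libraries with a loss held 10603088 to 19039469 counts, within the range of the series. Some were among the shallowest, with 10603088 and 11636886 counts in cat 20 at Day 1 and Day 8, and 11493650 in cat 19 at Day 1. Depth at Day 1 differed by set of cats under the same batch label. Cats 14 to 20 had 10603088 to 13758004 counts, and cats 1 to 13 had 14356232 to 22564720. At Day 8 the ranges of these sets overlapped. Others were deeper, with 13744233 in cat 19 at Day 8, 18695759 in cat 2 at Day 1 and 19039469 in cat 3 at Day 8. The shallowest library of all, cat 20 at Day 1, gave 506 counts of the lost gene. Whether depth bears on the losses was not tested.

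Losses were counted in the same way among other genes. Of the 100 genes with the most counts, 18.0% had a near-complete loss in at least 1 library, the 4 genes included, and 14.0% were lost in the Day 8 library of cat 3. For 11 of the latter 14, that library was the only one. Across all 10211 genes, 4.03% had a loss somewhere, and 2.92% in that library. Both shares were higher among the 100 abundant genes, but the 4 genes, chosen for abundance and loss, count in both. Of the 100 genes, 5 were lost in 4 or more libraries, and ENSFCAG00000009810, chosen for such losses, was lost in the most, 6. No other gene of the 100 was lost in both libraries of cat 19, and none in both libraries of cat 20.

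The relations between the genes across cats depended on which cats were counted. That between ENSFCAG00000040576 and ENSFCAG00000045346 had the highest r over 19 cats and without cat 3, but not over the 15 cats without a loss. Levels were averaged over both days in each cat on the log2 CPM scale. There were 10 relations, 6 between genes and 4 between days, with Benjamini-Hochberg adjustment over the 10. Since the losses chose the genes, values from sets of cats that hold a loss of either gene are given as a description, with no p. ENSFCAG00000040576 and ENSFCAG00000045346 had Pearson's r = 0.905 and Spearman's rho = 0.711 over 19 cats. Without cat 3, r was 0.773 (permutation p = 0.00018, adjusted p = 0.0006) and rho 0.659 (permutation p = 0.00356, adjusted p = 0.0119). Without cats 3 and 20, those farthest from the median of the first gene, r was 0.664 (permutation p = 0.00442). The r was 0.901 in cats 1 to 12 (11 cats, with cat 3 among them), with rho = 0.50, and 0.937 in cats 13 to 20 (8 cats, exact permutation p = 0.00067). In the 15 cats left without cats 2, 3, 19 and 20, r was 0.526, with a permutation p of 0.0449 and an adjusted p of 0.0873.

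Without cat 3, the r of ENSFCAG00000001928 with each of these genes fell further. Its r with ENSFCAG00000040576 was 0.710 over 19 cats, with rho = 0.446. Without cat 3 the r was 0.379 (permutation p = 0.121, adjusted p = 0.175) and rho 0.348 (permutation p = 0.157, adjusted p = 0.224). Without cats 3 and 20 the r was 0.520 (permutation p = 0.0316), while cats 1 to 12 alone gave 0.823 and cats 13 to 20 gave 0.107. Its r with ENSFCAG00000045346 was 0.616 over 19 cats, with rho = 0.244. That r was 0.246 without cat 3 (permutation p = 0.327, adjusted p = 0.363), 0.314 without cats 3 and 9 (permutation p = 0.219), 0.767 in cats 1 to 12 and -0.0548 in cats 13 to 20. Neither relation thus passed the adjusted threshold of 0.05 without cat 3.

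ENSFCAG00000009810 was likewise chosen by its losses, so its relations were tested over the 15 cats without a loss. There its r was 0.591 with ENSFCAG00000040576 (permutation p = 0.0208, adjusted p = 0.0520), 0.465 with ENSFCAG00000045346 (permutation p = 0.0818, adjusted p = 0.117) and 0.359 with ENSFCAG00000001928 (permutation p = 0.189, adjusted p = 0.215). The values of rho were 0.436, 0.464 and 0.357. None passed the adjusted threshold.

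**Figure D3:**
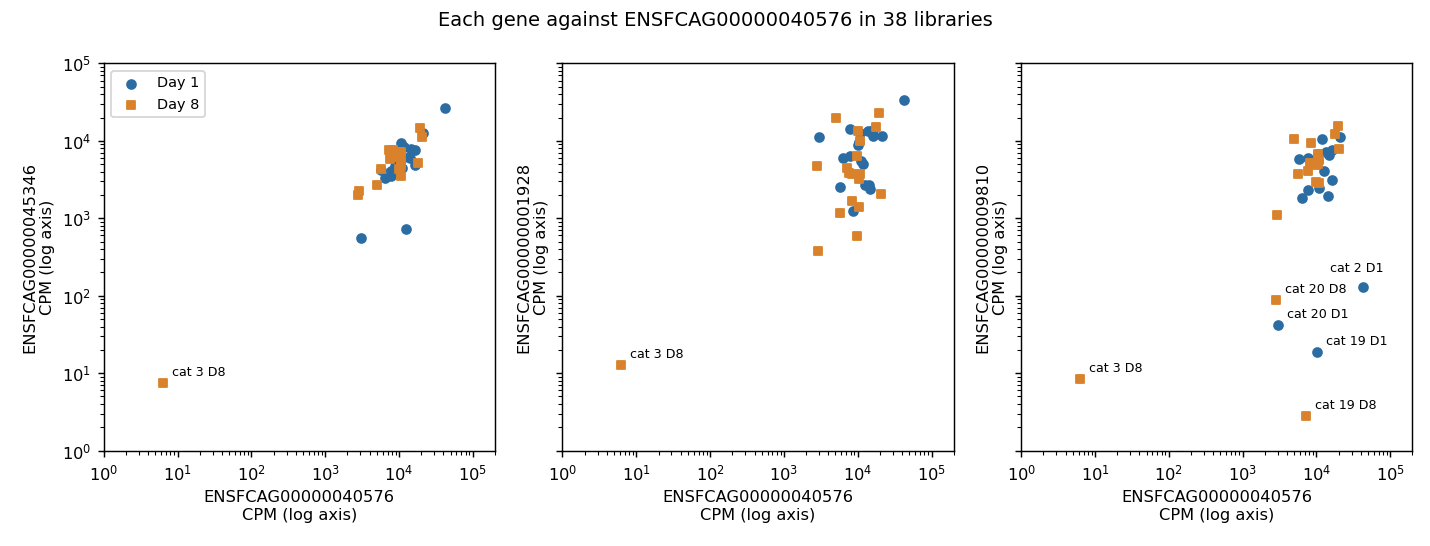
Level of each of 3 genes against that of ENSFCAG00000040576, in CPM on log axes, with 1 point per library, circles for Day 1 and squares for Day 8. The Day 8 library of cat 3 lies at the lower left in every panel, while in the right panel the libraries of cats 19 and 20 and the Day 1 library of cat 2 lie low for ENSFCAG00000009810, those of cat 20 with 3018 and 2809 CPM of ENSFCAG00000040576 as well.

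Without cat 3, cats with a higher level at Day 1 also had a higher level at Day 8. Between days in those 18 cats, ENSFCAG00000040576 had r = 0.888 (permutation p = 1e-05, the smallest that 100000 draws can give, adjusted p = 0.0001) and rho = 0.917. ENSFCAG00000045346 had r = 0.807 (permutation p = 0.0001, adjusted p = 0.0005) and rho = 0.829, and ENSFCAG00000001928 had r = 0.605 (permutation p = 0.00764, adjusted p = 0.0153) and rho = 0.562. With cat 3 the r were 0.170, 0.200 and 0.587 and the rho 0.765, 0.721 and 0.60. Leaving out the 2 cats farthest from the median at Day 1, with cat 3 still in, gave r = 0.0352 for ENSFCAG00000040576 (cats 2 and 20), 0.237 for ENSFCAG00000045346 (cats 20 and 8) and 0.508 for ENSFCAG00000001928 (cats 9 and 2). ENSFCAG00000009810, taken over the 15 cats without a loss, had r = 0.728 (permutation p = 0.00162, adjusted p = 0.00810) and rho = 0.714. In those 15 cats the r of ENSFCAG00000001928 was 0.512 (permutation p = 0.0524, adjusted p = 0.0873).

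The same value was set beside that of other genes. Among 13266 genes whose log2 CPM averaged 1 or more, the median r between days was 0.635 over 19 cats, 0.677 without cat 3 and 0.684 over the 15 cats. ENSFCAG00000040576 stood at percentile 2.50 of these genes over 19 cats, 96.5 without cat 3 and 90.2 over the 15 cats. ENSFCAG00000045346 stood at 3.14, 82.9 and 42.6, so its place among other genes turned on the cats counted. ENSFCAG00000001928 stood at 39.5, 35.1 and 21.8, below the median each time. ENSFCAG00000009810 stood at 57.4, 78.3 and 59.7. The values over 19 cats and without cat 3 hold losses for which it was chosen, and only 59.7 is free of them. Over 19 cats its r was 0.668, and 0.140 without cats 19 and 20. In cats 13 to 20 the r of ENSFCAG00000040576 was 0.911 (8 cats, exact permutation p = 0.00226), and in cats 1 to 12, which hold cat 3, it was 0.0923 with rho = 0.655. For ENSFCAG00000045346 these were 0.828 in cats 13 to 20, and 0.145 with rho = 0.655 in cats 1 to 12, and for ENSFCAG00000001928 0.402 and 0.639.

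The comparison of Day 8 with Day 1 asked whether these genes changed from before treatment to the second biopsy. In edgeR's quasi-likelihood test with the cat as a block, 0 of the 4 genes passed at an adjusted p of 0.05, against 7.05% of the 14996 genes tested (1057 genes, 1.93% lower and 5.11% higher). That share over all genes depended on the fit. The number called was 0 with a batch term added to the block, and 0 in cats 1 to 12 or 13 to 20 alone. An unadjusted p under 0.05 was found for 1 of the 4, ENSFCAG00000001928, and for 3721 of the 14996 genes. DESeq2 and limma with the same block also called 0 of the 4, against 14.3% and 9.28% of all genes. Levels at the 2 days overlapped for every gene. The median log2 change of all genes was -0.02, and -0.11 when libraries were scaled by their totals in place of TMM. That scaling turned the balance of calls over all genes to 8.26% lower and 3.83% higher (12.1% in all), with 0 of the 4 genes among them.

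ENSFCAG00000001928 had the largest fitted change of the 4, a log2 change of -1.10 ± 0.42 (SE, 19 cats, edgeR p = 0.0156, adjusted p = 0.106). It was lower at Day 8 in 14 of 19 cats and more than 2-fold lower in 10. Beyond cat 3, the largest drops were from 5991 to 380 CPM in cat 18, from 9544 to 1660 CPM in cat 7 and from 11679 to 2073 CPM in cat 13. It was higher in 5 cats, most of all in cat 10, where it went from 6357 to 19867 CPM. Without cat 3 the log2 change was -0.92 ± 0.31 (edgeR, adjusted p = 0.0790). It was -0.84 ± 0.61 in cats 1 to 12 alone and -1.44 ± 0.45 in cats 13 to 20 alone, with edgeR adjusted p of 0.493 and 0.223.

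ENSFCAG00000040576 was lower at Day 8 in 17 of 19 cats, mostly by a little. The median paired log2 change was -0.36, and only cats 2, 3 and 18 fell more than 2-fold. The edgeR log2 change was -0.49 ± 0.38 (SE, adjusted p = 0.432). Leaving out cat 3 gave -0.33 ± 0.10 with an adjusted p of 0.0456 in edgeR, the only omission of a single cat under which any of the 4 genes passed. In cats 13 to 20 alone, where 8 of 8 cats were lower, the change was -0.29 ± 0.16 (edgeR, adjusted p = 0.530), and the largest drop there was in cat 18, from 6375 to 2897 CPM. Levels in cats 13, 14, 15 and 16 moved by less than 0.05 on the log2 scale.

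ENSFCAG00000045346 and ENSFCAG00000009810 had no common direction. The former was lower in 10 and higher in 9 cats, with an edgeR log2 change of -0.07 ± 0.40 (SE, adjusted p = 0.937) and 0.10 ± 0.18 without cat 3. The latter was also lower in 10 and higher in 9, with -0.09 ± 0.47 (adjusted p = 0.931) and 0.09 ± 0.36 without cat 3. Its extremes were opposite in sign, a log2 change of -7.83 in cat 3 and 6.88 in cat 2. In the 15 cats without a loss of any of the genes, its paired log2 changes had a mean of -0.02 ± 0.61 (SD), and those of ENSFCAG00000045346 a mean of 0.06 ± 0.72. All 4 genes were lower at Day 8 in 5 cats, which were 3, 5, 7, 13 and 18, and all 4 were higher in 1, cat 1.

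The change did not differ detectably between cats 13 to 20, whose batch label changed between days, and cats 1 to 12. In edgeR the differences, as cats 13 to 20 minus cats 1 to 12, were 0.38 ± 0.78, -0.60 ± 0.85, 0.51 ± 0.81 and -0.31 ± 0.98 (SE) on the log2 scale in the order in which the genes are listed at the start. For each of them the adjusted p was 0.9998, and the test called 0% of all genes, with 399 at an unadjusted p under 0.05, while DESeq2 called 4. With the cat as a block this term is the same as the batch term, so batch and set of cats cannot be told apart. The standard errors leave room for differences of more than 2-fold in either direction.

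**Figure D4:**
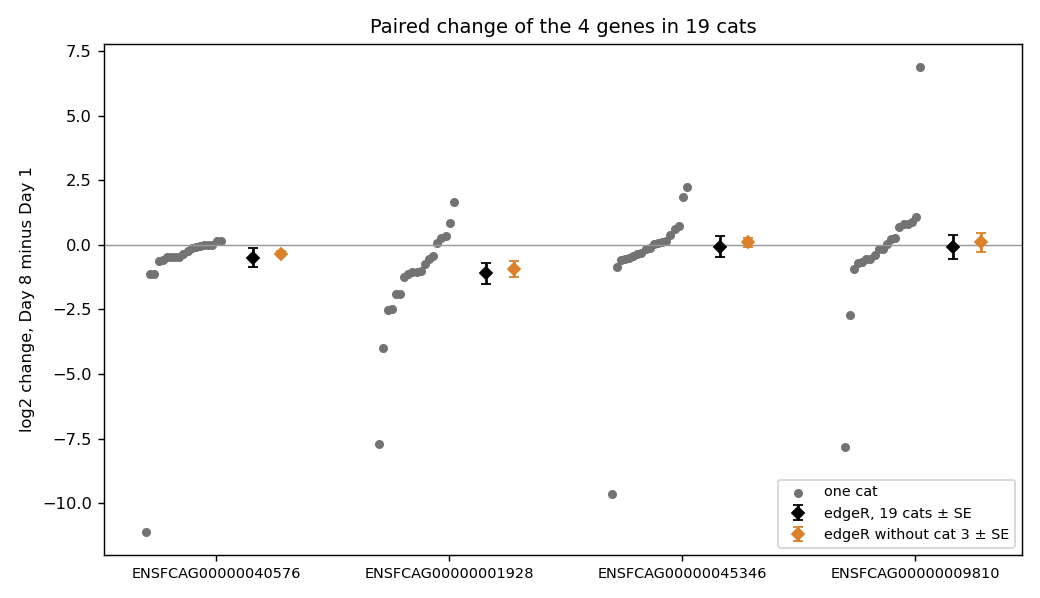
Log2 change from Day 1 to Day 8 of each gene, with a grey point per cat in order of size and diamonds for the edgeR estimate ± SE with all 19 cats (black) and without cat 3 (orange). The grey points of ENSFCAG00000001928 lie below 0 in 14 of 19 cats, and cat 3 is the lowest point of every gene.

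The genes with the most similar pattern over the 38 libraries were found by Pearson's r of log2 CPM among 13266 genes. The libraries share cats in pairs, and no test was made. For ENSFCAG00000040576 they were ENSFCAG00000000790 (r = 0.956), ENSFCAG00000007581 (r = 0.948) and ENSFCAG00000013509 (r = 0.939). Those 3 genes stood at 0.0292%, 0.701% and 0.527% of their medians in the Day 8 library of cat 3, and without that library their r fell to 0.726, 0.762 and 0.768. In all, 120 genes had r of at least 0.8 with ENSFCAG00000040576, and 5 without that library.

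For ENSFCAG00000001928 the closest genes were ENSFCAG00000031668 (r = 0.915), ENSFCAG00000012890 (r = 0.911) and ENSFCAG00000003987 (r = 0.901). The first of these and ENSFCAG00000012890 had 0 CPM in the Day 8 library of cat 3. ENSFCAG00000012890 became the closest of all genes when that library was left out, with r = 0.897. There were 33 genes with r of at least 0.8, and 12 without that library. ENSFCAG00000045346 was most like ENSFCAG00000040576 itself (r = 0.919), followed by ENSFCAG00000000285 (r = 0.896) and ENSFCAG00000010300 (r = 0.887). Without that library the r were 0.703, 0.750 and 0.766, and the number of genes with r of at least 0.8 went from 39 to 0.

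ENSFCAG00000009810 had 1 gene with r of at least 0.8, ENSFCAG00000042407 (r = 0.865, and 0.837 without the Day 8 library of cat 3). The next were ENSFCAG00000042057 (r = 0.793) and ENSFCAG00000044399 (r = 0.764). ENSFCAG00000042407 had 2.67 and 0.547 CPM in cat 19 at Day 1 and Day 8, 5.82 and 1.69 CPM in cat 20, and a median of 135 CPM over all libraries. In cat 2 it went from 10.8 CPM at Day 1 to 1068 CPM at Day 8, as ENSFCAG00000009810 went from 131 to 15477 CPM. Cat 3 separated the pair at Day 1, where ENSFCAG00000042407 was already at 3.06 CPM, or 2.26% of its median, while ENSFCAG00000009810 stood at 39.2% of its own. Over the 30 libraries of the 15 cats without a loss the r of the pair was 0.436. Of all 10211 genes, 2 others were below 5% of their median in 4 or more of the 6 libraries where ENSFCAG00000009810 was lost. These were ENSFCAG00000042407 and ENSFCAG00000027074, named here after their values were seen, each with 5, and the latter was lost in 12 libraries in all.

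**Figure D5:**
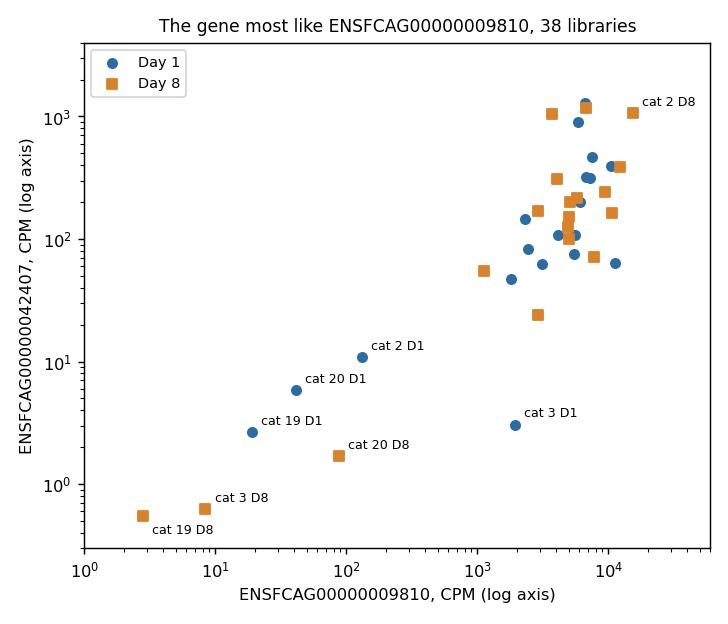
Level of ENSFCAG00000042407 against that of ENSFCAG00000009810, in CPM on log axes, 1 point per library, circles for Day 1 and squares for Day 8. The libraries of cats 19 and 20, the Day 1 library of cat 2 and the Day 8 library of cat 3 are low for both genes, the Day 1 library of cat 3 is low for ENSFCAG00000042407 only, and the Day 8 library of cat 2 is high for both.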

How the data were processed

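The authors deposited a table of raw counts, whole numbers for each gene in each library, with no normalisation. The submitters' processing notes name HISAT2 2.0.5 and featureCounts. Genome build, annotation release and strand setting were not given in the sources used here. Reads of overlapping genes or near-identical copies may therefore be mixed. The genes described and the design were chosen with earlier results of these data known. The marker lists drawn up for this work could not be applied, since 0 IDs matched a symbol.

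Genes were filtered with filterByExpr (minimum count 10), which left 14996 holding 99.8% of counts. Libraries were scaled by TMM, and log2 CPM used a prior count of 2. Day 8 was compared with Day 1 in edgeR 4.0.16 (robust quasi-likelihood, R 4.3.3) with the number in the labels as a block, adjusted by Benjamini-Hochberg over all tested genes. SE is the log2 change over the root of F. As alternatives, limma 3.58.1 (voom, sample quality weights) and DESeq2 1.42.0 were run. The procedure was run on simulated counts built without near-complete losses, so its behaviour for genes with such losses was not tested.

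The labels do not state that a number is a cat. Same-numbered libraries deviated together, with r of 0.365 to 0.882 in 19 of 19 pairs (median -0.0519 between different numbers), so numbers were taken as cats. All 19 Day 1 libraries were closest to their own number, and so were 18 of the Day 8 libraries. The exception was number 7, whose Day 8 library was closer to the Day 1 library of another number than to its own (r = 0.365). No libraries were duplicates, as chi-square over its degrees of freedom was at least 19.8 in 703 pairs. Nothing says that biopsies were taken from separate sites. The p-values take the cats as units, and with a single library per cat and day the spread within a tumour was not measured. Named genes were the 4 listed and, for each, the 3 with the highest r to it. ENSFCAG00000027074 was added from shared losses after its values were seen.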

Additional observations from a re-analysis of the deposited data

How the results depend on the processing

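Chosen after seeing the data were the alternatives without cats 2, 3, 19 and 20, those in cats 1 to 13 or 14 to 20, and correlations in cats 1 to 12 or 13 to 20. For the 1057 genes called between days with the block, the count was 2143 in DESeq2, 1814 with library totals, 646 without cats 2, 3, 19 and 20, 29 in cats 14 to 20, and 0 with no replicate block (with or without batch), with the replicate block and a batch term, and in cats 1 to 12, 13 to 20 or 1 to 13 alone. Without a single cat it was 671 to 1166, the low values being 683 (cat 5 omitted), 674 (cat 11 omitted) and 671 (cat 20 omitted).

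The 4 genes passed in no alternative other than the omission of cat 3 for ENSFCAG00000040576. Without a single cat the log2 changes ran from -0.54 to -0.33 for ENSFCAG00000040576, from -1.25 to -0.92 for ENSFCAG00000001928, from -0.19 to 0.10 for ENSFCAG00000045346 and from -0.27 to 0.0941 for ENSFCAG00000009810. The change of ENSFCAG00000045346 turned to 0.22 in cats 13 to 20, 0.27 in cats 14 to 20 and 0.0319 without cats 2, 3, 19 and 20. That of ENSFCAG00000009810 turned to 0.58 with batch and no replicate block, 0.21 with neither, 0.0558 with the replicate block and batch, 0.14 in limma, 0.0558 in cats 1 to 12, 0.0941 without cat 3 and 0.0353 without cat 19. With no replicate block and batch, ENSFCAG00000001928 changed by -0.16 ± 0.56. At 10% of the median in place of 5%, ENSFCAG00000001928 had 2 losses in place of 1, at 1% ENSFCAG00000009810 had 4 in place of 6, and the other numbers of losses were the same at 1%, at 10% and with library totals.

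Correlations of ENSFCAG00000040576 with ENSFCAG00000001928 were 0.323 at Day 1 alone, 0.358 without cats 2, 3, 19 and 20 and 0.107 in cats 13 to 20. With ENSFCAG00000045346 the r was 0.526 without those 4 cats, and with ENSFCAG00000009810 it was 0.648 at Day 8 alone. ENSFCAG00000001928 and ENSFCAG00000045346 had 0.303 at Day 1, 0.121 without those cats and -0.0548 in cats 13 to 20. ENSFCAG00000001928 and ENSFCAG00000009810 had 0.173 over 19 cats, -0.33 at Day 1 and -0.41 in cats 13 to 20. Between days, ENSFCAG00000040576 had 0.861 without those cats and 0.911 in cats 13 to 20, and ENSFCAG00000045346 0.649 and 0.828. ENSFCAG00000001928 had 0.512, and 0.639 and 0.402 in the sets 1 to 12 and 13 to 20, and ENSFCAG00000009810 0.0733 in cats 1 to 12, where cats 2 and 3 stand apart.

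Omitting 1 cat gave 0.379 to 0.768 for the first pair of genes as listed, 0.773 to 0.960 for ENSFCAG00000040576 and ENSFCAG00000045346, 0.384 to 0.713 for ENSFCAG00000040576 and ENSFCAG00000009810, 0.246 to 0.699 for ENSFCAG00000001928 and ENSFCAG00000045346, -0.0868 to 0.322 for ENSFCAG00000001928 and ENSFCAG00000009810, and 0.244 to 0.70 for ENSFCAG00000045346 and ENSFCAG00000009810. Between days it gave 0.0907 to 0.888, 0.531 to 0.617, 0.121 to 0.807 and 0.430 to 0.821 in the order listed. The ends at 0.713, 0.70 and 0.430 were without cat 19. These r are descriptions where the cats counted hold a loss. The cause of these shifts was not tested.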
